A study of Mus musculus with 27 samples.

Results

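The hedgehog ligand and response genes are 7 genes, Shh, Ptch1, Smo, Hhip, Gli1, Gli2 and Gli3, taken by symbol from the deposited table, in which they are 7 of 30735 genes. The estimated counts of each gene's transcripts were summed, and levels are given in all 27 libraries, 18 from retina and 9 from brain. All 7 genes passed the filter on low counts in every comparison.

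Hedgehog signalling passes from a secreted ligand to a receptor pair. In the absence of ligand the receptor Ptch1 holds the membrane protein Smo inactive, and binding of Shh to Ptch1 frees Smo to act at the primary cilium on the Gli transcription factors. Gli2 is the main activator, Gli3 acts largely as a repressor, and Gli1 is an activator that is itself transcribed in response to the signal, as are Ptch1 and Hhip, a membrane protein that binds and sequesters the ligand. In the developing mouse retina, retinal ganglion cells (RGCs) are known to make Shh, and the dividing progenitor cells around them are known to respond to it.

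The retinal libraries came from C57Bl/6 mice with alkaline phosphatase (AP) placed at the Brn3a (Pou4f1) or Brn3b (Pou4f2) locus, genes for POU domain transcription factors of RGCs. All of these mice carry 1 AP allele: in the KO groups the other allele is null (Brn3aAP/KO, Brn3bAP/KO), and in the HET groups it is intact (Brn3aAP/WT, Brn3bAP/WT), so no retinal group is free of the knock-in. Dissociated retinas were captured on magnetic beads that carry an antibody against AP, which gave AP-positive cells, called RGC here, and unbound supernatant cells, called SN. At postnatal day 3 (P3) there are 2 RGC libraries each of Brn3a KO, Brn3a HET, Brn3b KO and Brn3b HET, and at embryonic day 15 (E15) there are 2 each of Brn3b KO and Brn3b HET. Each of these 6 combinations has 1 SN library. In the main tests the SN libraries of an age formed 1 group, so their spread includes genotype and, at P3, locus. RGC and SN libraries were not paired. The brain libraries came from wild-type mice at P3, as 3 libraries of superior colliculus (SC), 3 of lateral geniculate nucleus (LGN), 1 of pretectal area (PTA) and 2 of remaining brain, sections pooled after the dissection that the labels' tissue entry calls whole brain. SC, LGN and PTA are regions that receive RGC axons, and they were found through a fluorescent tracer injected into the eyes after birth. Nothing in the labels states that libraries of a group came from separate animals, so p-values measure the spread between libraries, which may be technical. In brain titles a prefix of M with a number recurs across SC, LGN and remaining brain and may name animals. The main brain tests did not pair libraries by it.

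Retinal libraries held 28905675 to 37394655 estimated counts and brain libraries 10122962 to 13769685, and levels are CPM, counts scaled to a common library size after TMM scaling. Per the labels, RGC libraries were read single-end at 76 bases and brain libraries paired-end at 125 bases on another instrument, so the organs were not tested against each other. Pou4f2 was at 21.0 and 18.6 CPM in RGC libraries of Brn3b KO retinas and at 190 and 289 CPM in Brn3b HET RGC libraries at P3. Pou4f1 was at 16.7 and 11.0 CPM in Brn3a KO RGC libraries, replicates 1 and 2, and at 486 and 444 CPM in Brn3a HET RGC libraries. Replicate 2 of Brn3a KO, which one label entry assigns to Brn3b, thus had low Pou4f1, as a Brn3a KO library by its title. Of 11 RGC markers, 11 were higher in RGC than in SN libraries at P3 and 5 at E15, and of 11 markers of progenitors and Müller glia, 11 were lower at P3 and 6 at E15. At P3 summed RGC markers reached 5260 to 7440 CPM in Brn3a and 3080 to 4410 CPM in Brn3b HET RGC libraries. In Brn3b KO RGC libraries they reached 1310 to 1530 CPM, against 681 to 1170 CPM in SN libraries. Summed photoreceptor markers were at 1850 to 3310 CPM in Brn3b and 279 to 1310 CPM in Brn3a RGC libraries, against 1830 to 2280 CPM in SN libraries. The part of these differences was not tested. Summed over the list, 10 markers of microglia and macrophages reached 872 to 3500 CPM in P3 RGC libraries, against 7.94 to 24.5 CPM in P3 SN libraries, and their part in the results was not tested. In progenitor markers, 2 RGC libraries stood apart from their partners. At P3 the summed level was 1370 CPM in Brn3b KO replicate 2 and 833 CPM in replicate 1, and at E15 it was 2380 CPM in Brn3b HET replicate 2 and 1080 CPM in replicate 1.

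The loci lie on 6 chromosomes of GRCm38. Shh (ENSMUSG00000002633) is at chr5:28456815-28467101 on the minus strand, and Ptch1 (ENSMUSG00000021466) is at chr13:63508328-63573598 on the minus strand. Smo (ENSMUSG00000001761) is at chr6:29735694-29761365 on the plus strand, and Hhip (ENSMUSG00000064325) is at chr8:79966115-80058006 on the minus strand. Gli1 (ENSMUSG00000025407) is at chr10:127329889-127341589 on the minus strand, Gli2 (ENSMUSG00000048402) at chr1:118834132-119053619 on the minus strand, and Gli3 (ENSMUSG00000021318) at chr13:15463235-15730026 on the plus strand.

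RefSeq promoter entries (GRCm38.p6) were matched by symbol for 5 of the 7 members, Ptch1, Smo, Hhip, Gli2 and Gli3. The 250 bases before the annotated start are shown for Ptch1 and Hhip, the pathway's feedback genes among these 5, with matches to the GC box GGGCGG on either strand (reverse complement CCGCCC) in capitals.
Ptch1: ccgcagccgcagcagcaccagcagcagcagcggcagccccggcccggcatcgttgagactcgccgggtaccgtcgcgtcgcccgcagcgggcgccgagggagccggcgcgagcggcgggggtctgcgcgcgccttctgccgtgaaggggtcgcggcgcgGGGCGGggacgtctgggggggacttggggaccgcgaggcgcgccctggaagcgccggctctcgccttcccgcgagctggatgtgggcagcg
Hhip: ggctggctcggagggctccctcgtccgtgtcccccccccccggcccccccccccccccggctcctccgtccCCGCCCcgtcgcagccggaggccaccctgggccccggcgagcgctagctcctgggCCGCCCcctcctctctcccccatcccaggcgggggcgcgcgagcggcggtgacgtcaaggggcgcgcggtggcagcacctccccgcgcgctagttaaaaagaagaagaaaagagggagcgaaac
The Ptch1 stretch is chr13:63565736-63565985 on the minus strand and holds 1 GC box and 41 CpG dinucleotides, with a GC content of 78.4%. The Hhip stretch is chr8:80058009-80058258 on the minus strand and holds 2 GC boxes and 28 CpG dinucleotides, with a GC content of 76%. Over all 32851 promoter entries the median was 52.4% GC and 6 CpG dinucleotides, and 32.7% held a GC box. The GLI motif GACCACCCA, searched on both strands (reverse complement TGGGTGGTC), has no match in these 250 bases of any of the 5 members, and 0.225% of all entries hold it; with no match there is no overlap with a GC box. The Ptch1 entry begins at the start of transcript Ptch1-001, which took 7.67% of the gene's retinal counts. Ptch1-005, with 88.7% of them, starts 1200 bases further downstream, so the stretch shown lies before the start of the less counted transcript.

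At P3 the ligand and the genes of the responding side fell on opposite sides of the bead separation. Shh was 6.26-fold higher in RGC than in SN libraries, and the other 6 members were lower by 2.16-fold (Ptch1) to 11.2-fold (Gli1). Thus 7 of 7 members passed the test, 1 higher and 6 lower, against 55% of all 16954 genes tested, 27.3% higher and 27.7% lower. The median log2 fold change was -1.85 over the members and -0.027 over all genes. In these bulk libraries, fewer cells of a type and less RNA per cell cannot be told apart.

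Shh was at 18.5 and 15.7 CPM in Brn3a KO, 17.3 and 18.9 CPM in Brn3a HET, 2.41 and 4.93 CPM in Brn3b KO, and 9.75 and 13 CPM in Brn3b HET RGC libraries at P3. The 4 SN libraries were at 1.36 (Brn3a KO), 1.41 (Brn3a HET), 1.96 (Brn3b KO) and 2.08 CPM (Brn3b HET). Every RGC library lay above every SN library, and the pair from Brn3b KO retinas was lowest among the RGC libraries. The log2 fold change was 2.65 ± 0.33 (SE; edgeR adjusted p = 1.46e-05). Set against the 1 SN library of the same genotype, mean Shh in RGC libraries was 12.6 times as high in Brn3a KO, 12.8 times in Brn3a HET, 1.88 times in Brn3b KO and 5.45 times in Brn3b HET, with no test on 1 SN library.

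Ptch1, the receptor, had a lowest level of 46.2, a median of 64.0 and a highest level of 115 CPM over the 8 RGC libraries, against 137 (Brn3a KO), 189 (Brn3a HET), 138 (Brn3b KO) and 150 CPM (Brn3b HET) in SN libraries. All RGC libraries lay below all SN libraries, with the smallest fold among the members (log2 fold change -1.11 ± 0.16 SE; edgeR adjusted p = 3.9e-05). Smo, the signal transducer that Ptch1 restrains, ran from 24.8 through a median of 35.6 to 83.0 CPM in RGC libraries, against 97.2, 109, 101 and 117 CPM in the SN libraries of the same 4 genotypes. These groups did not overlap either, and the log2 fold change was -1.42 ± 0.16 (SE; edgeR adjusted p = 8.73e-06). Hhip, the decoy that binds ligand, was lowest at 2.57, with a median of 2.87 and a highest level of 9.36 CPM in RGC libraries, against 6.46, 13.1, 12.3 and 18.4 CPM in SN libraries. Here the groups overlapped through 1 RGC library, Brn3b KO replicate 2, which lay above the lowest SN library. The Hhip log2 fold change was -1.85 ± 0.36 (SE; edgeR adjusted p = 0.00063).

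The Gli genes showed the largest folds. Gli1, the target and activator, was at 0.792 and 1.1 CPM in Brn3a KO, 1.34 and 1.31 CPM in Brn3a HET, 5.87 and 16.7 CPM in Brn3b KO, and 4.72 and 4.45 CPM in Brn3b HET RGC libraries. SN libraries were at 17.4 (Brn3a KO), 45.9 (Brn3a HET), 21.6 (Brn3b KO) and 42.1 CPM (Brn3b HET). The highest RGC library, Brn3b KO replicate 2, came close to the lowest SN library but did not reach it, and the 4 Brn3a libraries were lowest. The log2 fold change of Gli1 was -3.48 ± 0.38 (SE; edgeR adjusted p = 5.23e-06). Gli2, the main activator, was lowest at 1.96, with a median of 4.34 and a highest level of 19.5 CPM in RGC libraries, against 32.7, 39.7, 33.1 and 44.0 CPM in SN libraries (log2 fold change -2.95 ± 0.23 SE; edgeR adjusted p = 2.42e-07). Gli3, largely a repressor, had a lowest level of 4.75, a median of 12.2 and a highest level of 67.3 CPM in RGC libraries, against 94.1, 101, 92.4 and 116 CPM in SN libraries (log2 fold change -2.77 ± 0.31 SE; edgeR adjusted p = 5.64e-06). For both, no RGC library reached the lowest SN library. The gene Arhgap9 overlaps Gli1 on the opposite strand and Gm13717 overlaps Smo on the same strand, and whether counting used strand is not stated. Arhgap9 was at 2.14 to 13.7 CPM in P3 RGC libraries and at 0.0564 CPM or less in P3 SN libraries, opposite in direction to Gli1.

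**Figure D1:**
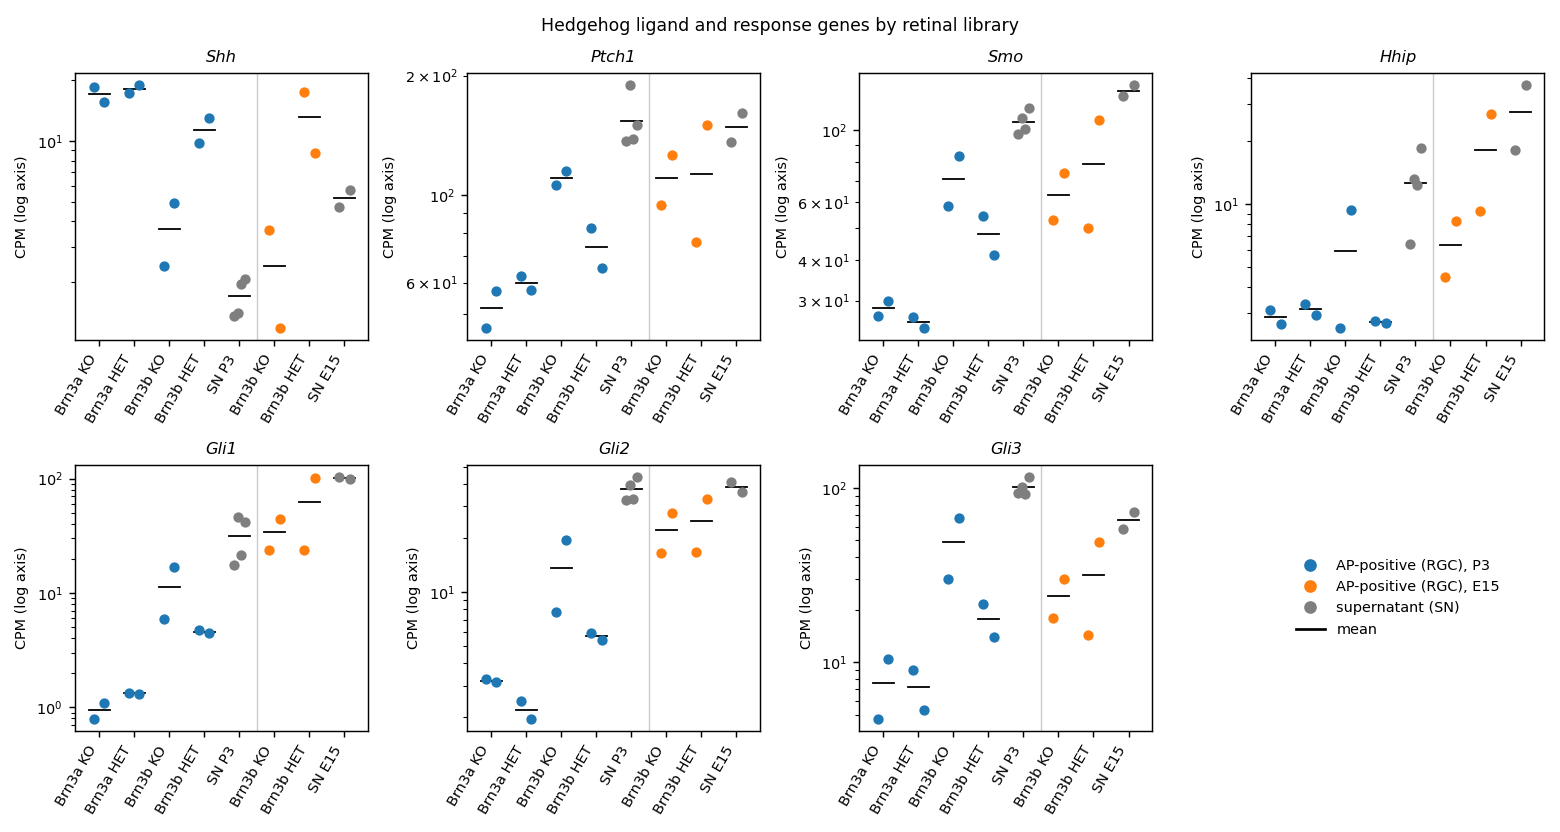
Level of each member in CPM (log axis) in the 18 retinal libraries, by group, with P3 groups left of the grey line and E15 groups right of it; points are libraries, black bars are means, and each SN set pools genotypes. At P3 Shh is at least 2.41 CPM in every RGC library and at most 2.08 CPM in every SN library, while Gli1 is at most 16.7 CPM in RGC libraries and at least 17.4 CPM in SN libraries.

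The E15 comparison held 4 RGC and 2 SN libraries, of Brn3b alone, against 8 and 4 of both loci at P3. The comparisons at the ages thus differ in loci and library number too. At E15 fewer members passed. Of the 7 members, 0 were higher and 2 were lower in RGC than in SN libraries, against 26.3% of all genes called and 13% called lower. The median log2 fold change was -0.91 over the members and -0.014 over all genes. Smo was at 52.9 and 73.8 CPM in Brn3b KO libraries and at 49.9 and 107 CPM in Brn3b HET RGC libraries, against 127 (Brn3b KO) and 137 CPM (Brn3b HET) in SN libraries. Gli3 was at 18 and 30.1 CPM in Brn3b KO and 14.4 and 48.7 CPM in Brn3b HET RGC libraries, against 57.8 (Brn3b KO) and 72.9 CPM (Brn3b HET) in SN libraries. In both genes all RGC libraries lay below the SN libraries, with Brn3b HET replicate 2 nearest to them. The log2 fold change was -0.91 ± 0.23 (SE; edgeR adjusted p = 0.0143) for Smo and -1.25 ± 0.43 (SE; edgeR adjusted p = 0.0469) for Gli3. Both calls were lost in a fit of the E15 libraries alone, with adjusted p of 0.103 for Smo and 0.123 for Gli3, and with genotype as additive terms, where they were 0.0727 and 0.182. Without Brn3b HET replicate 2, the RGC library with high progenitor markers, 6 members were lower, and without Brn3b KO RGC replicate 1 or the Brn3b HET SN library 0 passed. Gli3 was lost in 4 of 6 fits with 1 library left out, also without Brn3b HET RGC replicate 1 (adjusted p = 0.118) and without the Brn3b KO SN library (0.0713), and its adjusted p ran up to 0.308.

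Shh at E15 was at 3.61 and 1.19 CPM in Brn3b KO libraries and at 17.5 and 8.77 CPM in Brn3b HET RGC libraries, against 4.71 (Brn3b KO) and 5.69 CPM (Brn3b HET) in SN libraries. The SN libraries lay between the genotypes of the RGC libraries, above both KO and below both HET libraries, so the pooled log2 fold change was 0.11 ± 0.41 (SE; edgeR adjusted p = 0.877). Against the SN library of its own genotype, mean Shh in RGC libraries was 0.51 times as high in Brn3b KO and 2.31 times as high in Brn3b HET. Gli1 at E15 was at 23.6 and 44.2 CPM in Brn3b KO libraries and at 23.6 and 101 CPM in Brn3b HET RGC libraries, against 104 and 98.5 CPM in SN libraries. The second HET library sat at the level of the SN libraries and the other 3 lay well below them (log2 fold change -1.14 ± 0.51 SE; edgeR adjusted p = 0.109). Gli2 (-0.72 ± 0.32 SE; edgeR adjusted p = 0.11), Hhip (-1.36 ± 0.50 SE; 0.0601) and Ptch1 (-0.41 ± 0.22 SE; 0.184) also did not pass.

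**Figure D2:**
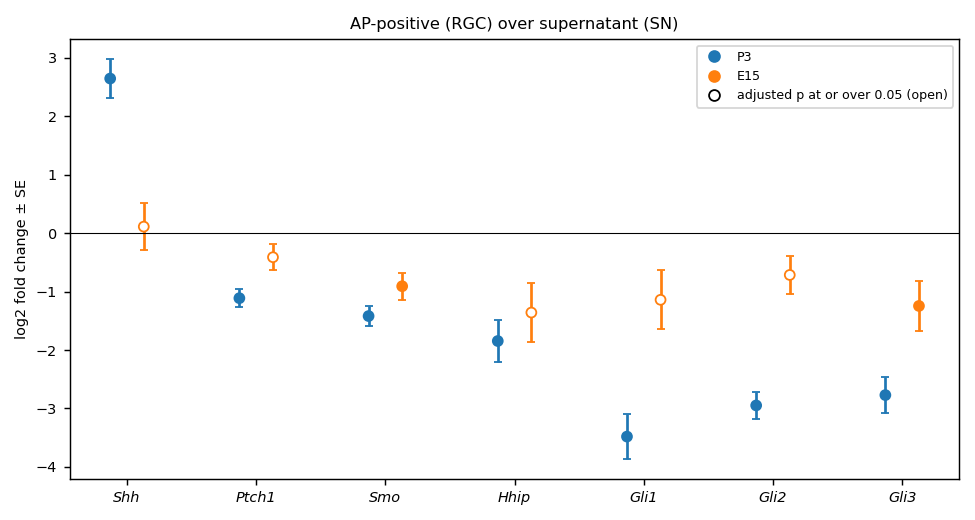
Fitted log2 fold change with SE of RGC over SN libraries for each member at P3 (blue) and E15 (orange); filled points pass at adjusted p under 0.05. Shh is 2.65 at P3 and 0.11 at E15, and each of the other 6 members is below 0 at both ages. P3 pools the Brn3a and Brn3b loci, while E15 holds Brn3b alone.

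Whether the separation itself differed between the ages was tested as an interaction. Its RGC side was Brn3b alone at both ages, while its SN side at P3 pooled both loci. The values are thus not the difference of the pooled folds given above. Of 7 members 0 passed in edgeR, with 6.87% of all genes called, although the difference was 1.81 ± 0.52 (SE; edgeR adjusted p = 0.0508) for Shh and -1.37 ± 0.43 (SE; edgeR adjusted p = 0.0719) for Gli2, both with an unadjusted p under 0.05, as had 4165 of all 16954 genes. DESeq2 called both, with adjusted p of 0.0104 and 0.0159. The edgeR fit called 1 member, Shh, without either replicate 1 library of Brn3b KO, at P3 or at E15, called Gli2 alone without the P3 Brn3b KO replicate 2, and called both without the E15 Brn3b HET replicate 1.

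In the unbound cells, 2 of 7 members differed between the ages, both lower at P3, with 33.1% of all genes called and 17.5% called lower. Shh was at 1.36, 1.41, 1.96 and 2.08 CPM in the 4 SN libraries at P3 and at 4.71 and 5.69 CPM in the 2 at E15. Gli1 was at 17.4, 45.9, 21.6 and 42.1 CPM at P3 and at 104 and 98.5 CPM at E15. Neither gene's groups overlapped. The log2 fold change was -1.61 ± 0.39 (SE; edgeR adjusted p = 0.00686) for Shh and -1.67 ± 0.50 (SE; edgeR adjusted p = 0.0211) for Gli1. P3 has SN libraries of both loci and E15 of Brn3b alone. With the Brn3b libraries alone at P3 both calls were lost (adjusted p = 0.0531 for Shh and 0.0781 for Gli1). With genotype as additive terms they were lost too, at -1.90 ± 0.69 (SE; edgeR adjusted p = 0.0585) for Shh and -0.52 ± 0.90 (SE; edgeR adjusted p = 0.721) for Gli1. Without the Brn3b HET SN library at E15 0 members passed, and without the Brn3a KO or Brn3b KO SN library at P3, or the Brn3b KO SN library at E15, only Shh did. In the same contrast 8 of 11 RGC, 3 of 8 cell cycle, 3 of 4 erythroid and 2 of 11 progenitor markers were lower at P3, while 1 RGC and 1 progenitor marker were higher. Of photoreceptor markers 5 of 6 were higher and 1 lower, of amacrine markers 4 of 7 higher and 2 lower, and of endothelial and mural markers 3 of 6 higher and 1 lower. Of astrocyte markers 3 of 5 and of microglia markers 2 of 10 were higher, and the part of these markers in the results was not tested.

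Other genes of the pathway at P3 were grouped as ligand handling and co-receptors (13 genes), cilium and transduction (16 genes) and genes reported to respond to hedgehog (12 genes, 10 of them tested). Each count is to be read against the 27.3% of all genes called higher and 27.7% called lower. In the first group 2 were higher and 8 lower in RGC than in SN libraries, with a median log2 fold change of -0.70. The co-receptors, which help present the ligand to Ptch1, were all lower: Gas1 by 5.6-fold (log2 fold change -2.49 ± 0.28 SE; edgeR adjusted p = 6.94e-06), Cdon by 3.53-fold (-1.82 ± 0.17 SE; 1.63e-06) and Boc by 3.37-fold (-1.75 ± 0.37 SE; 0.00108). Disp1, which releases ligand from the cell that makes it, was 1.63-fold lower (-0.71 ± 0.15 SE; edgeR adjusted p = 0.0011), and Hhat, which attaches the ligand's lipid, was 1.45-fold lower (-0.54 ± 0.13 SE; edgeR adjusted p = 0.00346). Lrp2 and Scube3 were also among those lower. The higher pair was Disp2, a relative of Disp1, by 4.38-fold (2.13 ± 0.26 SE; edgeR adjusted p = 1.42e-05) and Scube2, a secreted ligand carrier, by 2.29-fold (1.20 ± 0.32 SE; edgeR adjusted p = 0.00532). The other ligand genes Ihh and Dhh did not pass.

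In the cilium and transduction group 4 of 16 were higher, close to the share over all genes, and 7 lower, with a median log2 fold change of -0.23. The lower genes included Kif7, a kinesin of the ciliary tip (3.51-fold; log2 fold change -1.81 ± 0.27 SE; edgeR adjusted p = 7.56e-05), Evc, a Smo partner at the ciliary base (3.37-fold; -1.75 ± 0.25 SE; 5.22e-05), Tulp3, a ciliary trafficking adaptor (3.01-fold; -1.59 ± 0.14 SE; 7.12e-07), and Sufu, which holds Gli proteins in check (1.67-fold; -0.74 ± 0.11 SE; 6.25e-05). Stk36, Rab23 and Ulk3 were lower by 1.3- to 1.46-fold. The higher genes were Gpr161, a ciliary receptor that opposes the pathway (1.52-fold; 0.60 ± 0.13 SE; edgeR adjusted p = 0.00118), Kif3a, Prkaca and Gsk3b. These last 3, a motor subunit of cilia and axons and 2 kinases with many other roles, differed by 1.16- to 1.32-fold.

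Of the 10 responsive genes tested, 0 were higher and 7 lower, with a median log2 fold change of -0.70. Olig2, a progenitor transcription factor, was 8.28-fold lower (log2 fold change -3.05 ± 0.29 SE; edgeR adjusted p = 1.61e-06), Ccnd1, the cyclin D of dividing retinal progenitors, 7.25-fold (-2.86 ± 0.31 SE; 5.44e-06), and Hes1, a Notch effector, 4.38-fold (-2.13 ± 0.29 SE; 2.94e-05). Cdk6, Bcl2, Mycn and Zic1 were lower by 1.5- to 2.58-fold. Cell cycle markers, 8 of 8 lower at P3, and progenitor markers, 11 of 11 lower, moved with the lower genes of the 3 groups and opposite to the 2 ligand handling and 4 cilium genes that were higher. Their part in the results was not tested. At E15, of 13 ligand handling genes 1 was higher and 1 lower, and of 16 cilium genes 1 was higher and 5 lower. Of 10 responsive genes 0 were higher and 3 lower. Over all 16954 genes tested, 2267 were higher and 2200 lower. Gas1 (2.64-fold), Evc (2.27-fold) and Olig2 (3-fold) were among the lower list genes.

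**Figure D3:**
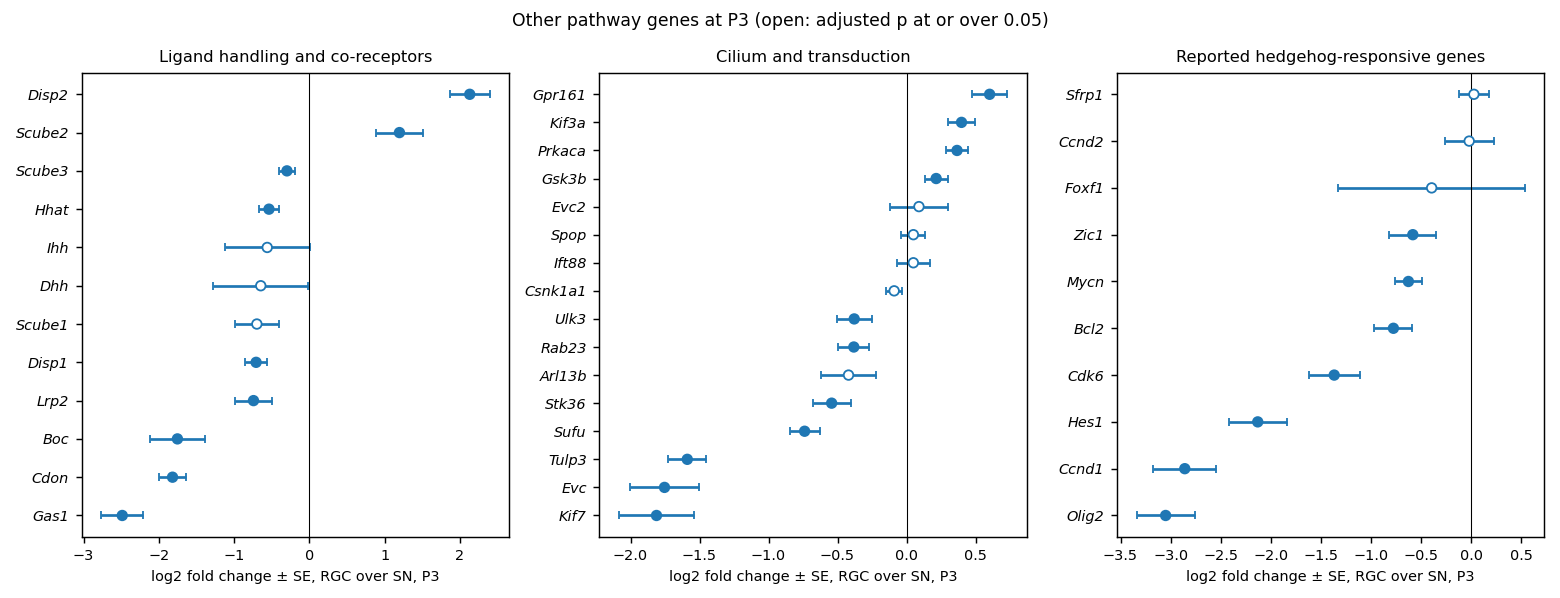
Fitted log2 fold change with SE of RGC over SN libraries at P3 for genes of the 3 pathway groups, all of those tested except 1 of ligand handling; filled points pass at adjusted p under 0.05. Gas1 at -2.49, Kif7 at -1.81 and Olig2 at -3.05 are the lowest of their groups, and Disp2 at 2.13 is the highest of all.

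Loss of Brn3a was not accompanied by a called change in any member. In Brn3a KO against HET RGC libraries at P3, 0 of 7 passed, with 0.018% of all genes called; at an unadjusted p under 0.05 there were also 0 members, against 432 of all 16673 genes, and DESeq2 called 0. Shh was at 18.5 and 15.7 CPM in Brn3a KO and at 17.3 and 18.9 CPM in Brn3a HET libraries, which overlapped (log2 fold change -0.07 ± 0.49 SE; edgeR adjusted p = 1). Gli1 was at 0.792 and 1.1 CPM in Brn3a KO and at 1.34 and 1.31 CPM in Brn3a HET libraries, lower in both KO libraries by less than its error (log2 fold change -0.48 ± 0.75 SE; edgeR adjusted p = 1).

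With loss of Brn3b the Shh values of KO libraries lay below those of HET libraries at both ages, without passing the test. At P3 Shh was at 2.41 and 4.93 CPM in Brn3b KO libraries and at 9.75 and 13 CPM in Brn3b HET RGC libraries (log2 fold change -1.62 ± 0.51 SE; edgeR adjusted p = 0.124). At E15 it was at 3.61 and 1.19 CPM in Brn3b KO libraries and at 17.5 and 8.77 CPM in Brn3b HET RGC libraries (log2 fold change -2.45 ± 0.53 SE; edgeR adjusted p = 0.0523). The fold was 3.08 at P3 and 5.47 at E15, and the groups did not overlap at either age. With 2 libraries on each side, groups can lie apart in this way without a difference. DESeq2 called Shh lower at both ages, with adjusted p of 0.0239 at P3 and 0.000154 at E15. In edgeR the E15 difference also passed without a filter on low counts (adjusted p = 0.0137), with all 18 retinal libraries in the fit (0.0187), without Brn3b HET replicate 2 (0.0391) and without Brn3b KO replicate 1 (0.0339); its adjusted p ran up to 0.319 with the compared groups alone. At P3, 8 of 11 RGC markers were lower in Brn3b KO libraries, with a summed level of 1310 and 1530 CPM in Brn3b KO and 3080 and 4410 CPM in Brn3b HET libraries, and at E15 4 of 11 were lower. Of 10 microglia markers, 7 were lower in Brn3b KO libraries at P3 and 0 at E15. Of 7 amacrine markers, 1 was higher in Brn3b KO libraries at P3 and 2 at E15, and of 4 erythroid markers 1 was lower at each age. The part of these markers in the Shh values was not tested.

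Over the members, 0 of 7 passed for Brn3b KO against HET in edgeR at P3, with 3.41% of all genes called, and 0 of 7 at E15, with 1.85% called. At an unadjusted p under 0.05, 3 members differed at P3, Shh, Gli2 and Gli3, and 2 at E15, Shh and Hhip, against 3191 and 1951 of all 16673 genes. At P3 Gli1 was at 5.87 and 16.7 CPM in Brn3b KO libraries and at 4.72 and 4.45 CPM in Brn3b HET libraries, and Gli2 was at 7.76 and 19.5 CPM in Brn3b KO libraries and at 5.93 and 5.42 CPM in Brn3b HET libraries. Gli3 was at 30.2 and 67.3 CPM in Brn3b KO libraries and at 21.6 and 14 CPM in Brn3b HET libraries. In all 3 genes both KO libraries lay above both HET libraries, and KO replicate 2, with high progenitor markers, was the highest. Without that library the log2 fold change was 0.38 for Gli1, 0.47 for Gli2 and 0.79 for Gli3, against 1.3 ± 0.64, 1.27 ± 0.45 and 1.46 ± 0.61 (SE) with it. In Brn3a KO against HET libraries, where no member was called, Ptch1, Smo, Gli1 and Gli2 were also apart, while Shh, Gli3 and Hhip overlapped. The share of all genes lying apart was not counted in either comparison, so this is not read as a result about the members. At E15 the sign of Gli1, Gli2, Gli3, Ptch1 and Smo turned on 1 library, Brn3b HET replicate 2: they had log2 fold changes of -0.87, -0.18, -0.39, -0.04 and -0.31, and without it 0.54, 0.41, 0.76, 0.55 and 0.36. Ptch1 and Gli2 also turned positive, to 0.16 and 0.15, without Brn3b KO replicate 1. None of the 5 passed in any of these fits.

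Set between P3 and E15, the Brn3b KO effect passed as different in edgeR for 0 of 7 members, with 0.192% of all genes called, and 0 of 7 passed when it was set against the Brn3a KO effect at P3, with 0.012% called. At an unadjusted p under 0.05, Gli1, Gli2 and Hhip differed between the ages and 0 members between the loci, against 1962 and 1471 of all 16673 genes, and DESeq2 called 0 in both. For Shh the log2 difference of the effects was 0.83 ± 0.72 (SE; edgeR adjusted p = 0.682) between the ages and -1.55 ± 0.71 (SE; edgeR adjusted p = 0.583) between the loci.

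**Figure D4:**
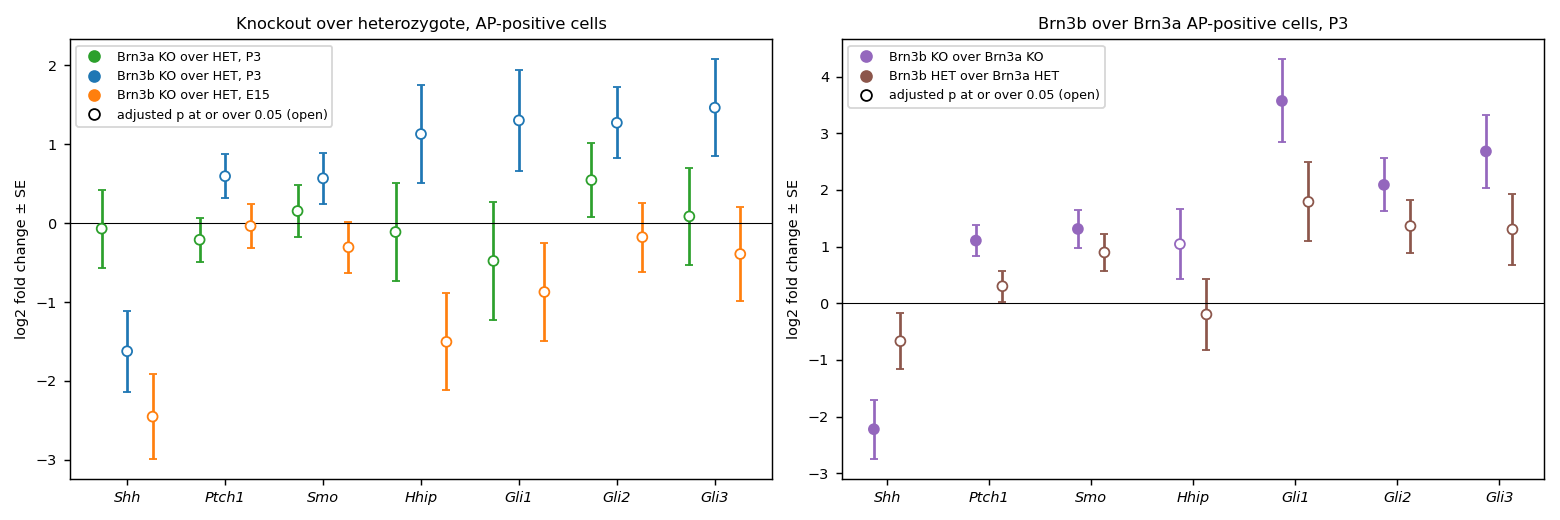
Fitted log2 fold change with SE for each member in RGC libraries, with KO over HET at left (Brn3a at P3 in green, Brn3b at P3 in blue, Brn3b at E15 in orange) and Brn3b over Brn3a at P3 at right (KO in purple, HET in brown); filled points pass at adjusted p under 0.05. At left no point passes, with Shh at -1.62 and -2.45 for Brn3b; at right Shh at -2.22 and 5 members above 0 pass among KO libraries.

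The cells captured through the 2 loci were compared within KO and within HET libraries. In Brn3b KO against Brn3a KO RGC libraries at P3, 5 members were higher and 1, Shh, was lower, against 36% of all genes called, 16.7% higher and 19.2% lower. Shh was at 2.41 and 4.93 CPM in Brn3b KO and at 18.5 and 15.7 CPM in Brn3a KO libraries (log2 fold change -2.22 ± 0.52 SE; edgeR adjusted p = 0.0101). Gli1 was at 5.87 and 16.7 CPM in Brn3b KO and at 0.792 and 1.1 CPM in Brn3a KO libraries, an 11.9-fold difference (log2 fold change 3.57 ± 0.73 SE; edgeR adjusted p = 0.00563). Neither gene's groups overlapped. Gli3 was 6.41-fold higher in Brn3b KO (edgeR adjusted p = 0.0109), Gli2 4.25-fold (0.00807), Smo 2.48-fold (0.013) and Ptch1 2.15-fold (0.0136), and Hhip did not pass (log2 fold change 1.04 ± 0.62 SE; 0.211). Without Brn3a KO replicate 1 none of the 6 passed, with Shh at adjusted p = 0.0508 and Gli1 at 0.0552. Without Brn3b KO replicate 1 the Shh call alone was lost. Without Brn3b KO replicate 2 the calls of Gli2, Gli3, Smo and Ptch1 were lost, and Shh and Gli1 kept theirs. In the same contrast 11 of 11 RGC markers were lower and 9 of 11 progenitor markers and 7 of 8 cell cycle markers were higher in Brn3b KO, as were 6 of 7 amacrine and 3 of 6 photoreceptor markers and 1 of 6 endothelial and mural markers, while 10 of 10 microglia and 4 of 4 erythroid markers were lower, and their part in the results was not tested. This comparison shares its Brn3b KO libraries with that against Brn3b HET.

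Among HET libraries, Brn3b against Brn3a gave 0 of 7 members in edgeR, with 3.85% of all genes called. Shh was at 9.75 and 13 CPM in Brn3b HET libraries and at 17.3 and 18.9 CPM in Brn3a HET libraries (log2 fold change -0.67 ± 0.50 SE; edgeR adjusted p = 0.397). Gli1 was at 4.72 and 4.45 CPM in Brn3b HET libraries and at 1.34 and 1.31 CPM in Brn3a HET libraries (log2 fold change 1.79 ± 0.70 SE; edgeR adjusted p = 0.13), so both genes' libraries were apart without passing. At an unadjusted p under 0.05 there were 3 members, Gli1, Gli2 and Smo, against 4793 of all 16673 genes. DESeq2 called 2, and a fit of the compared groups alone called 4, Gli1, Gli2, Gli3 and Smo. The share of all genes called in these alternatives is not given here.

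Between the ages, Gli1, Gli2 and Hhip were lower at P3 than at E15 in Brn3b HET RGC libraries, 3 of 7 members against 28.8% of all genes called and 12.3% called lower. Gli1 was at 4.72 and 4.45 CPM at P3 and at 23.6 and 101 CPM at E15, a 13.5-fold difference (log2 fold change -3.75 ± 0.69 SE; edgeR adjusted p = 0.00368). Gli2 was at 5.93 and 5.42 CPM at P3 and at 16.7 and 33.1 CPM at E15 (log2 fold change -2.13 ± 0.46 SE; edgeR adjusted p = 0.00796). Hhip was at 2.77 and 2.69 CPM at P3 and at 9.27 and 26.8 CPM at E15 (log2 fold change -2.71 ± 0.64 SE; edgeR adjusted p = 0.0122). All 3 were lower in both P3 libraries than in either E15 library, and E15 replicate 2 was the highest in each. Without that library Gli1 alone passed, with a log2 fold change of -2.35, and it was also alone without P3 replicate 2. Without E15 replicate 1, 5 members passed. In the same contrast 4 of 8 cell cycle markers and 3 of 11 progenitor markers were lower at P3, while 1 progenitor marker was higher. Higher at P3 were also 10 of 10 microglia, 5 of 6 photoreceptor, 4 of 6 endothelial and mural, 4 of 7 amacrine, 3 of 5 astrocyte and 2 of 4 erythroid markers; of RGC markers 2 were higher and 4 lower, and 2 amacrine markers were lower. The part of these markers in the results was not tested. Shh did not pass, at 9.75 and 13 CPM at P3 and 17.5 and 8.77 CPM at E15, which overlapped (log2 fold change -0.20 ± 0.50 SE; edgeR adjusted p = 0.793).

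In Brn3b KO RGC libraries 0 of 7 members differed in edgeR between P3 and E15, with 25.4% of all genes called; at an unadjusted p under 0.05 there was 1, Gli1, against 6280 of all 16673 genes, and DESeq2 called 1. Gli1 was at 5.87 and 16.7 CPM at P3 and at 23.6 and 44.2 CPM at E15 (log2 fold change -1.57 ± 0.63 SE; edgeR adjusted p = 0.0984). Of the 9 responsive genes tested, 1 was lower at P3 in Brn3b KO, Sfrp1, a secreted Wnt antagonist (2.89-fold, edgeR adjusted p = 0.00311). Of all 16673 genes, 1846 were called lower there. In Brn3b HET 7 of the 9 were lower, against 12.3% of all genes. Among the 7 were Ccnd1 (4.7-fold, edgeR adjusted p = 0.0219) and Hes1 (4.11-fold, 0.0228). In the test of the Brn3b KO effect at P3 against E15, which asks whether the genotypes differ in this, 0 of the 9 passed. There 0.192% of all genes were called.

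Placed in order of mean level over the retina, Shh stood highest in Brn3a HET (18.1 ± 1.11 CPM) and Brn3a KO (17.1 ± 1.97 CPM) RGC libraries at P3, followed by Brn3b HET RGC at E15 (13.1 ± 6.17 CPM) and at P3 (11.4 ± 2.29 CPM; SD, n = 2 each). Next came SN at E15 (5.20 ± 0.70 CPM, n = 2), Brn3b KO RGC at P3 (3.67 ± 1.78 CPM, n = 2) and at E15 (2.40 ± 1.71 CPM, n = 2), and SN at P3 (1.70 ± 0.37 CPM, n = 4; SD). Library values of neighbours in this order overlapped, except between Brn3b HET RGC at P3 and SN at E15. Gli1 was ordered differently, from SN at E15 (101 ± 3.75 CPM, n = 2) through Brn3b HET (62.0 ± 54.4 CPM) and Brn3b KO RGC at E15 (33.9 ± 14.6 CPM), SN at P3 (31.7 ± 14.3 CPM, n = 4), Brn3b KO (11.3 ± 7.63 CPM) and Brn3b HET RGC at P3 (4.59 ± 0.19 CPM), to Brn3a HET (1.33 ± 0.018 CPM) and Brn3a KO RGC (0.946 ± 0.218 CPM; SD, n = 2 where not given). The 4 highest sets overlapped each with the next, and below them no neighbours overlapped in library values, although the means of Brn3b KO and HET RGC at P3 lay within 1 SD of Brn3b KO.

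On a scale per transcript length, where genes can be compared, the mean level in P3 RGC libraries was 21.5 ± 10.8 TPM (counts scaled by transcript length and library) for Smo, 20.0 ± 7.15 for Ptch1, 8.61 ± 4.23 for Shh, 4.74 ± 4.97 for Gli3, 2.51 ± 1.81 for Hhip, 2.35 ± 2.79 for Gli1 and 2.30 ± 3.16 for Gli2 (SD, n = 8). In P3 SN libraries it was 55.8 ± 3.45 TPM for Smo, 44.6 ± 8.77 for Ptch1, 24.8 ± 2.04 for Gli3, 17.1 ± 7.57 for Gli1, 12.2 ± 0.85 for Gli2, 8.33 ± 2.37 for Hhip and 1.25 ± 0.24 for Shh (SD, n = 4). By these means Shh stood below Smo and Ptch1 in RGC libraries and last in SN libraries, but its place among RGC libraries differed by genotype. In Brn3b KO RGC libraries Shh was at 1.73 and 3.53 TPM, below Gli3 at 7.19 and 15.9 TPM and Gli1 at 3.09 and 8.77 TPM. In Brn3a HET replicate 2 it was at 13.1 TPM, above Smo at 12.3 TPM.

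The genes whose log2 level (CPM + 1) was most like that of a member over the 18 retinal libraries were looked up among the 11463 genes that averaged 5 CPM or more. For Shh they were Nrn1 (Pearson r = 0.985), Sncg (0.983), Ndst4 (0.979), Rbpms (0.976) and Mstn (0.972), of which Sncg and Rbpms are established RGC markers. For Gli1 they were Foxn4 (0.99), Ptpru (0.989), Cdca7 (0.988), Mcm10 (0.987) and Plagl1 (0.986). Foxn4 is a transcription factor of retinal progenitors, and Mcm10 acts in DNA replication. Gli2 was nearest to E2f7 (0.989), E2f1 (0.985) and Rcc1 (0.984), where E2f1 and E2f7 are cell cycle transcription factors. Gli3 was nearest to Tnfaip6 (0.986), Shmt2 (0.985) and Itgb8 (0.984), and Hhip to the replication genes Prim1 (0.969), Pole (0.967) and Brip1 (0.966). Smo was nearest to Kif22 (0.993), Tgif2 (0.992) and Olig2 (0.991), and Ptch1 to Ptbp1 (0.98), Trp53 (0.973) and Slc2a1 (0.971). The 18 points fall into separate groups of fraction and age and share their libraries, so these values describe likeness of pattern only.

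Most members were counted through 1 transcript. Gli2-001 held 98.3% of the gene's retinal counts, Gli3-001 99.4% and Hhip-001 85.7%, while Shh, Smo and Gli1 have 1 transcript each in the table. For Ptch1, the share of Ptch1-001 was 7.43% of counts in P3 RGC libraries and 6.81% in P3 SN libraries, and 16.6% over the brain. The assignment between transcripts that share most exons is an estimate.

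In the P3 brain, Hhip was higher in the superior colliculus than in LGN and remaining brain. It was at 31.4, 41.9 and 39.3 CPM in SC libraries, against 5.84, 2.43 and 5.83 CPM in LGN libraries and 4.44 and 7.15 CPM in remaining brain, and the PTA library was at 3.80 CPM. All SC libraries lay above all other brain libraries. Hhip was 8.05-fold higher in SC than in LGN (log2 fold change 3.01 ± 0.32 SE; edgeR adjusted p = 0.000441) and 6.46-fold higher in SC than in remaining brain (2.69 ± 0.37 SE; edgeR adjusted p = 0.00267). Gli3 was at 13.8, 18.7 and 20.6 CPM in SC and at 6.23, 9.58 and 7.31 CPM in LGN libraries, which did not overlap (log2 fold change 1.19 ± 0.23 SE; edgeR adjusted p = 0.0106). Without SC replicate 2 the Gli3 call was lost (adjusted p = 0.0503).

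Between SC and LGN 2 of 7 members were thus called, both higher in SC, with 10.2% of all genes called and 4.41% called higher. Between SC and remaining brain 1 of 7 was called, with 6.94% called and 3.19% called higher, and 2 of 7 without replicate 1 of remaining brain. Between LGN and remaining brain 0 of 7 were called in edgeR, with 10.9% of all genes called. At an unadjusted p under 0.05 there were 3 of these, Gli1, Gli2 and Gli3, against 4068 of all 15288 genes, DESeq2 called 1, and 2 passed without replicate 1 of remaining brain. These 3 comparisons share libraries. Of the other pathway genes, the co-receptors Boc (4.08-fold; log2 fold change 2.03 ± 0.30 SE; edgeR adjusted p = 0.00232) and Gas1 (2.2-fold; 1.14 ± 0.21 SE; 0.00792) were higher in SC than in LGN, 2 of 12 tested in their group. Of 12 responsive genes 3 were lower in SC than in LGN, Hes1, Nkx2-2 and Zic1, by 2.45- to 8-fold. Of all 15288 genes, 883 were called lower there.

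Shh was low in all brain libraries. It was at 3.27, 2.41 and 3.37 CPM in SC, 2.14, 2.14 and 1.97 CPM in LGN, 1.20 CPM in PTA, and 2.31 and 2.24 CPM in remaining brain. The SC libraries lay above the others, by less than the test could call (against LGN, log2 fold change 0.54 ± 0.30 SE; edgeR adjusted p = 0.307). Gli1 was at 2.15, 4.34 and 2.39 CPM in SC, 2.43, 2.80 and 1.07 CPM in LGN, 2.80 CPM in PTA, and 3.37 and 9.13 CPM in remaining brain. Replicate 2 of remaining brain was the highest brain library in both Gli1 and Gli2, at 9.13 and 16.1 CPM. That library's summed cell cycle markers were at 440 CPM, against 149 to 199 CPM in the other brain libraries. Their part in the Gli values was not tested. Per length, Hhip was the most abundant member in SC at 24.0 ± 3.03 TPM, ahead of Smo at 20.4 ± 1.99 and Ptch1 at 15.9 ± 2.58 TPM (SD, n = 3). In LGN libraries Ptch1 was at 20.6 ± 3.95, Smo at 17.9 ± 1.48 and Hhip at 3.08 ± 1.21 TPM (SD, n = 3).

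**Figure D5:**
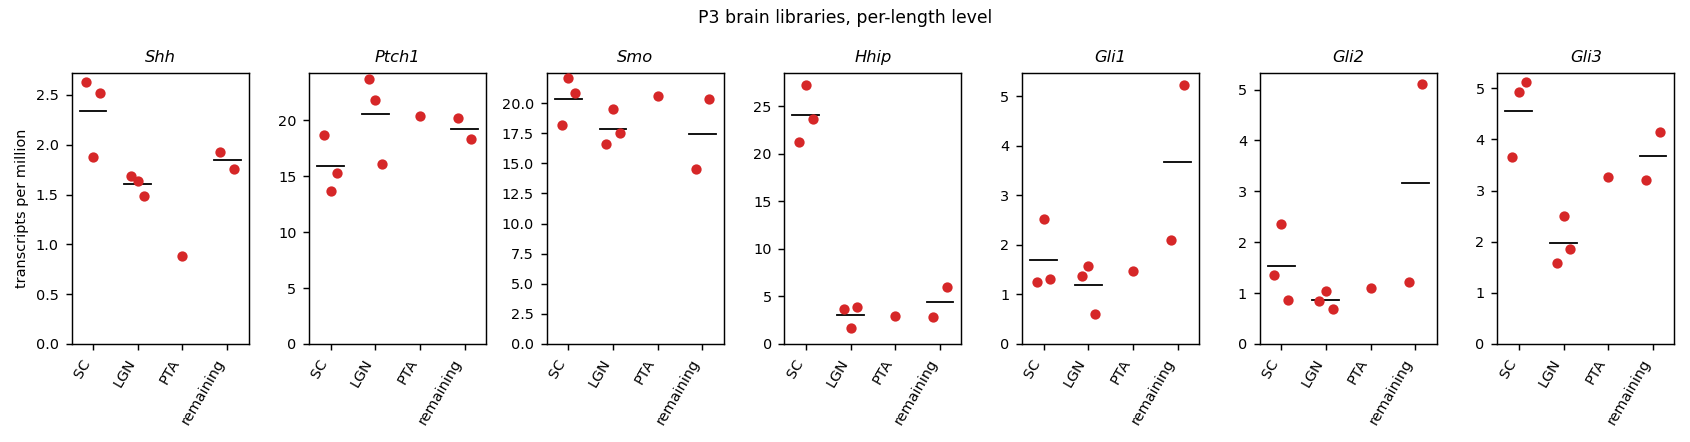
Level of each member per transcript length (TPM) in P3 brain libraries of SC, LGN, PTA and remaining brain; points are libraries and bars are means where there is more than 1 library. Hhip is at least 21.2 in each SC library and at most 6.00 in each other brain library.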

How the data were processed

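The deposited table holds estimated counts per transcript from eXpress 1.3.1 for 18 retinal and 9 brain libraries; the submitters' processing notes also name Trimmomatic 0.32, Bowtie2 2.2.1 and the build GRCm38.p3, with no role or order. Library preparation kept strand, per the labels' protocols, but its use in counting is not given in the sources used here. The 88198 transcripts were summed to 30735 genes after 27 gene symbols turned into dates had been restored, and sums were rounded. Levels are CPM on TMM-scaled library sizes, and TPM where stated, from counts divided by transcript length. The genotype entry of Brn3a KO RGC replicate 2 names Brn3b, against its title and source name, and it was kept as Brn3a KO. Source names of Brn3b and E15 samples also repeat Brn3a and P3 wording, so they do not tell the groups apart. For those samples titles and the genotype and age entries were used.

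Tests were edgeR 4.0.16 quasi-likelihood F-tests (R 4.3.3, limma 3.58.1) after a filter on low counts (minimum count 10), with Benjamini-Hochberg adjustment over all genes tested and a threshold of 0.05. One fit held 18 retinal libraries and 16954 genes, one the 12 RGC libraries and 16673 genes, and one the 9 brain libraries and 15288 genes. Where libraries of groups are said to lie apart or not to overlap, the share of all genes that do so was not counted. Scripts were tested on simulated data. Alternatives were other size factors, no filter, DESeq2 1.42.0, replicate blocks, other sample sets and leaving out each library. Members and lists were chosen with earlier results of these data known; named genes were the members, list genes that passed or were counted, and the genes most like each member by Pearson r. Total estimated counts per library were 28905675 to 37394655 in retina and 10122962 to 13769685 in brain, so values near 1 CPM are less precise in brain. One gene of the ligand handling list is counted but not reported by name here. Promoter sequences are from RefSeq, GRCm38.p6.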

Additional observations from a re-analysis of the deposited data

Results flagged for a closer look

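Among the 8 P3 RGC libraries, Brn3b KO replicate 2 stood apart as the highest in 4 members, by a gap to the next library above the Dixon limit for 8 values. It was at 16.7 CPM for Gli1, 19.5 CPM for Gli2, 67.3 CPM for Gli3 and 9.36 CPM for Hhip. The limit flags about 1 in 20 sets by chance when all values come from 1 population. The 8 libraries span 4 genotype groups, so that rate need not hold here. Of 21 sets tested 4 were flagged, all through this library, so the flags are not independent. Its summed progenitor markers were at 1370 CPM and its cell cycle markers at 1490 CPM, against 833 and 590 CPM in Brn3b KO replicate 1, and their part in the values was not tested.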

How the results depend on the processing

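All 7 members passed for RGC against SN at P3 under every alternative run, and 562 of the 633 single-gene values recomputed kept their direction and side of the threshold, with 36 losing a call, 23 gaining one and 12 turning round. For RGC against SN at E15, 2 members passed, against 4 with the replicate block and 0 with genotype as additive terms or the E15 libraries alone, and 0 to 6 when 1 library was left out. For SN at P3 against E15, 2 passed, against 0 with genotype as additive terms or Brn3b SN alone, and 0 to 2 with 1 library left out. The RGC-SN difference between ages gave 0 members, against 1 with no filter, 2 with DESeq2, 1 with genotype as additive terms and 0 to 2 with 1 library left out. Brn3b KO against HET gave 0 at P3, against 1 with DESeq2, and 0 at E15, against 1 with no filter, 1 with DESeq2, 1 with all 18 retinal libraries and 0 to 1 with 1 library left out. With 1 library left out, Brn3b HET P3 against E15 (3 members) gave 1 to 5, Brn3b KO against Brn3a KO (6) gave 0 to 6, SC against LGN (2) gave 1 to 2, SC against remaining brain (1) gave 1 to 2, and LGN against remaining brain (0) gave 0 to 2. Brn3b KO P3 against E15 (0) gave 1 with the replicate block and 1 with DESeq2, Brn3b HET against Brn3a HET (0) gave 2 with DESeq2 and 4 with the compared groups alone, and LGN against remaining brain gave 1 with no filter, 1 with the replicate block and 1 with DESeq2. For the alternatives, here and above, the number of all genes called is not given. Their member counts thus stand without the share over all genes and are not read as results about the members. The causes were not tested.

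Values that turned round came from leaving out 1 library, and none of them had passed. With 1 library left out, Shh ran from -0.376 (without Brn3b KO replicate 1) to 0.428 for RGC against SN at E15, also turning to -0.16 without Brn3b HET replicate 1. For Brn3b KO against HET at E15 the values ran from -0.414 to 0.549 for Ptch1, -0.719 to 0.356 for Smo, -1.536 to 0.537 for Gli1, -0.591 to 0.411 for Gli2 and -0.986 to 0.756 for Gli3, each highest without Brn3b HET replicate 2; Ptch1 and Gli2 were also 0.16 and 0.15 without Brn3b KO replicate 1. Shh ran from -0.221 to 0.061 for Brn3a KO against HET, highest without Brn3a KO replicate 2, and from -0.613 to 0.371 for Brn3b HET P3 against E15, highest without E15 replicate 1. Hhip ran from -0.069 to 1.778 for Brn3b KO against HET at P3, lowest without KO replicate 2. Libraries with the same replicate number had correlations of deviations from -0.116 to 0.171 in retina, and in brain SC and LGN gave 0.0707 to 0.218. These low values cannot decide whether libraries with the same number shared a litter or a batch. Where a group is left with 1 library, that library is assumed to vary like the other groups.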
